A study of Homo sapiens with 9 samples.

Results

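The genes described here store iron, bring it into the cell or take it out, move and complete heme, and break heme down to bilirubin. They were the rows of the count table that carry the symbols FTH1, FTL, TFRC, SLC40A1, ABCB6, FECH, HMOX1, HMOX2, BLVRA and BLVRB, 10 of the 61311 genes listed, and they were chosen by name. RNA of HaCaT cells, an immortalized line of human keratinocytes, was sequenced in 3 groups of 3 libraries. The UVA and CT group received UVA at 5 J/cm2 and then an extract of Coreopsis tinctoria flowers (CT). The UVA group received the same irradiation without the extract, and the control group was not irradiated. No group received CT without UVA, so the comparison of UVA and CT with UVA is the one in which only the extract differs. Nothing in the labels says that the libraries of a group came from separate cultures, so p-values measure the spread between these libraries, which may be technical.

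Free iron reacts with peroxides to form damaging radicals, and cells hold most spare iron inside ferritin, a shell of heavy (FTH1) and light (FTL) chains. Heme oxygenases open the ring of heme, releasing iron, carbon monoxide and biliverdin, and biliverdin reductases turn biliverdin into bilirubin, an antioxidant. Many of these genes carry antioxidant response elements (AREs), the DNA motif bound by NRF2 and opposed by BACH1, and HMOX1 is the textbook target of UVA in skin fibroblasts. A second layer acts on the RNA: iron regulatory proteins bind hairpins called iron-responsive elements (IREs), which block translation of ferritin RNA when iron is scarce and slow the decay of TFRC RNA.

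The library totals were 20129928 to 21971215 counts in UVA and CT, 16390289 to 19527286 in UVA and 17053246 to 19324311 in control. Levels are CPM, counts set to a common library total after scaling by TMM, a factor per library that sets most genes level between libraries. Adjusted p-values of genes are those of edgeR's quasi-likelihood test with Benjamini-Hochberg adjustment over the 15154 genes tested, and a gene was called where this p was under 0.05. All 8 keratinocyte markers checked (keratins KRT5, KRT14, KRT6A and KRT17, TP63, SFN, CDH1 and ITGA6) were expressed, with summed levels of 4814 to 5102 CPM in UVA and CT, 4580 to 5053 CPM in UVA and 5699 to 6602 CPM in control. Of these 8 markers, 7 were called lower in UVA than in control, beside 10.6% of all tested genes. In UVA and CT against control 5 were called lower, beside 14.2%, and between UVA and CT and UVA 0 were called. The 6 erythroid markers checked summed to 0 to 12 counts per library, and 3 of them, ALAS2 and SLC4A1 included, were at 0 in every library. The 6 macrophage markers summed to 14.6 to 16.1 CPM in UVA and CT, 14.1 to 18.5 CPM in UVA and 9.21 to 10.7 CPM in control, nearly all of it CD68, with C1QA at 0 in every library. The part of these markers in the results was not tested. In bulk RNA, fewer cells that express a gene and less of its RNA per cell cannot be told apart.

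Among the 10 genes, FTL was higher in UVA than in control and higher again in UVA and CT, and was the only one called in all 3 comparisons. TFRC, HMOX2 and BLVRA differed between UVA and CT and control, TFRC and HMOX2 upward and BLVRA downward. HMOX1 was barely detected, with at most 31 counts in a library, and SLC40A1 was not detected beyond 1 count.

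UVA against control asks what irradiation alone did. Of the 9 genes tested, FTL and TFRC were called higher and ABCB6 and BLVRA lower, 4 in all. Of all tested genes 21.1% were called, 10.5% higher and 10.6% lower. For UVA and CT against UVA, which asks what the extract added, 1 of the 9 was called, FTL, and it was higher. There 1.56% of tested genes were called, 0.944% of them higher and 0.614% lower as shares of all tested. For UVA and CT against control, FTL, TFRC and HMOX2 were called higher and BLVRA lower, 4 of 9 beside 29.8% of all tested genes (15.7% higher and 14.2% lower). The median log2 fold change of the 9 genes was -0.08 for UVA against control, 0.15 for UVA and CT against UVA and 0.12 for UVA and CT against control, beside 0.00 for all tested genes each time. An unadjusted p under 0.05 was reached by 5 of the 9 in UVA against control (33.3% of all tested genes), 5 in UVA and CT against UVA (13.2%) and 4 in UVA and CT against control (40.0%). The CPM of the 2 groups did not overlap for 6 of the 9 in UVA against control (38.0% of all tested genes), 4 in UVA and CT against UVA (18.8%) and 4 in UVA and CT against control (43.0%). In UVA and CT against control these last counts were near the shares of all tested genes and are no result about the 9 genes. The comparisons share libraries and are not independent of each other.

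**Figure D1:**
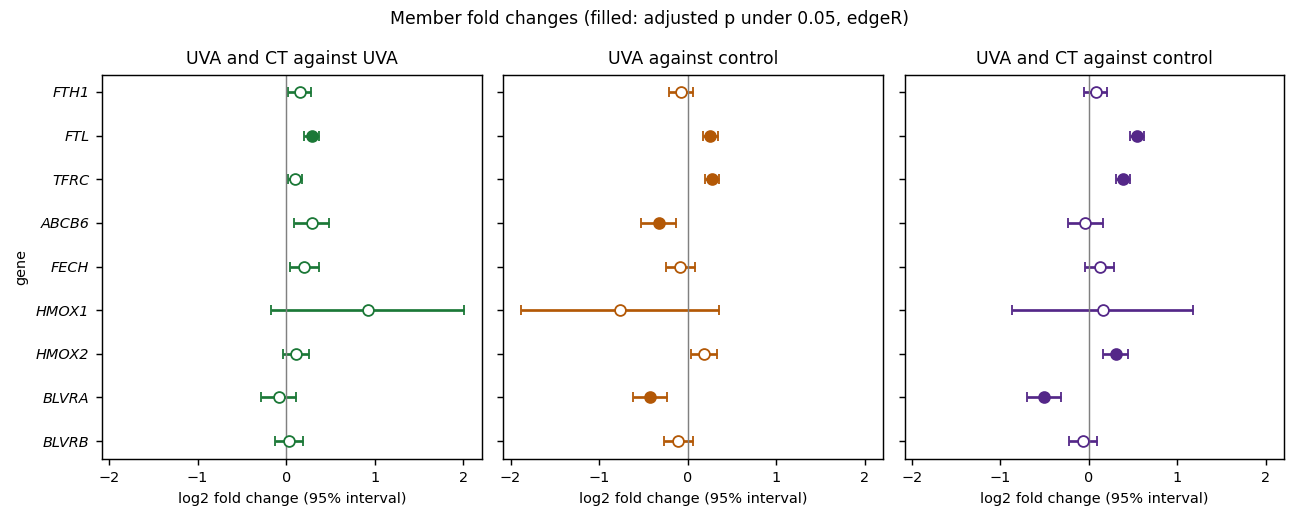
Log2 fold changes (x axis) of the 9 tested genes (y axis) in the 3 comparisons, with 95% intervals as bars and filled points where the adjusted p was under 0.05. FTL lies right of 0 in all 3 panels, BLVRA is filled left of 0 in both comparisons with control, and the interval of HMOX1 spans -0.17 to 2.01 in UVA and CT against UVA.

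FTL, the light chain of ferritin that helps the iron core to form, lies on chromosome 19 (chr19:48965301-48966878, plus strand, GRCh38). It had 347, 367 and 363 CPM in UVA and CT, 288, 288 and 305 CPM in UVA, and 243, 247 and 248 CPM in control. The 3 groups did not overlap in either step. The log2 fold change was 0.26 for UVA against control (SE 0.04, adjusted p = 0.000145) and 0.29 for UVA and CT against UVA (SE 0.04, adjusted p = 0.000202). Over both steps it was 0.54 for UVA and CT against control (SE 0.04, adjusted p = 1.02e-08), which is 45.9% higher. By p, FTL ranked 26 of all 15154 tested genes in UVA and CT against UVA and 11 in UVA and CT against control. Leaving out any of the 9 libraries kept the call in all 3 comparisons, with adjusted p of at most 0.00408 for UVA and CT against UVA.

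FTH1, the heavy chain, which carries the ferroxidase site that oxidises iron for storage, lies on chromosome 11 (chr11:61959718-61967660, minus strand). It had 3521, 3421 and 3752 CPM in UVA and CT, 3180, 3004 and 3447 CPM in UVA, and 3185, 3294 and 3670 CPM in control. The ranges of the 3 groups overlap. UVA against control gave a log2 fold change of -0.08 (95% interval -0.21 to 0.06, adjusted p = 0.436). The fold change for UVA and CT against UVA was 0.15 (95% interval 0.02 to 0.28), with an unadjusted p of 0.0293 and an adjusted p of 0.300. For UVA and CT against control it was 0.08 (95% interval -0.06 to 0.21, adjusted p = 0.394). The exons of FTH1 share 62.4% of their bases with BEST1 on the opposite strand, which had 81 to 139 counts per library, against 49353 to 80398 for FTH1.

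The 2 chains assemble into one shell, so their ratio within a library was also taken. FTL counts were 9.85, 10.7 and 9.67% of FTH1 counts in UVA and CT, 9.05, 9.60 and 8.84% in UVA, and 7.63, 7.51 and 6.75% in control. Every UVA and CT library lay above every UVA library, and every UVA library above every control library. The mean log2 ratio differed by 0.33 for UVA against control, by 0.14 for UVA and CT against UVA and by 0.47 for UVA and CT against control. A two-sided exact permutation test gave p = 0.1 each time, the smallest that 3 against 3 allows. The ratio does not depend on the scaling between libraries. The table also lists 25 pseudogenes of FTH1, which summed to 42 to 84 counts per library (at most 0.104% of FTH1, FTH1P10 the most abundant), and 16 of FTL, which summed to 2 to 6 (at most 0.127% of FTL, FTLP14 the most abundant). How reads that match several copies were counted is not given in the sources used here, so the absolute levels of FTH1 and FTL are uncertain.

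**Figure D2:**
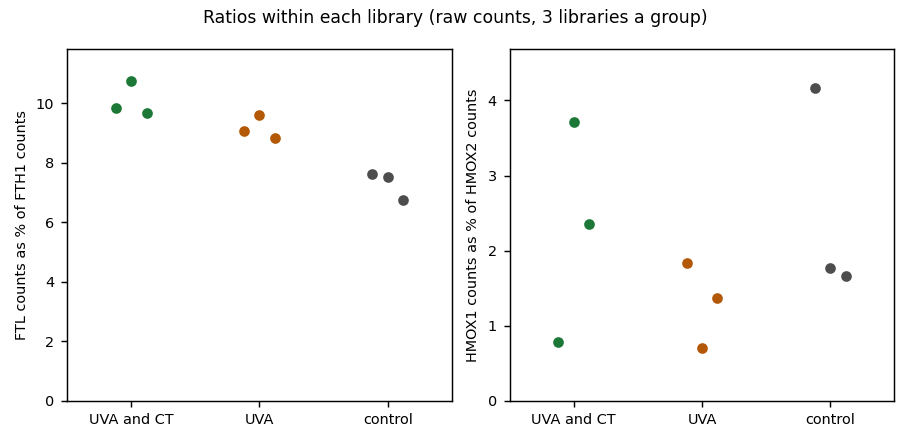
Counts of FTL as a percentage of FTH1 (left) and of HMOX1 as a percentage of HMOX2 (right) in each library, with 3 points per group. The left panel shows 3 separate levels, 9.67 to 10.7% in UVA and CT, 8.84 to 9.60% in UVA and 6.75 to 7.63% in control, whereas the groups overlap on the right.

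TFRC, the transferrin receptor that brings iron into the cell, lies on chromosome 3 (chr3:196027183-196082189, minus strand). It had 1652, 1680 and 1740 CPM in UVA and CT, 1526, 1629 and 1564 CPM in UVA, and 1337, 1290 and 1267 CPM in control. All 6 irradiated libraries were above the 3 control libraries, and the UVA and CT libraries lay just above the UVA libraries with no overlap. UVA against control gave a log2 fold change of 0.28 (SE 0.04, adjusted p = 4.02e-05) and UVA and CT against control 0.38 (SE 0.04, adjusted p = 6.22e-07). The difference of 0.10 for UVA and CT against UVA (95% interval 0.03 to 0.18, adjusted p = 0.198) was not called. SLC40A1 (ferroportin), the exporter of iron from the cell, had 1 count in 1 UVA library and 0 in the other 8. A count of 0 allows up to 3 counts, or 0.140 to 0.183 CPM in these libraries, and covers counting error only. It was not tested.

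The stretches of FTL and TFRC that match the letters of the IRE are shown. Matches in the other genes, FTH1 and SLC40A1 included, were not looked up. The matches are therefore not shown to be particular to FTL and TFRC. As described above, the IRE acts on translation in ferritin RNA and on decay in TFRC RNA. Whether iron or the IRE had a part in the RNA differences of FTL and TFRC was not tested. The search used the letters CNNNNNCAGTGN on the transcribed strand, an unpaired C and the loop CAGTGN with 5 bases between them. In FTL it matched in the 5′ UTR, within the first 50 transcribed bases, where 1.67% of 35116 RefSeq transcript starts have a match. In the 3′ UTR of TFRC it matched 5 times, whereas of 4146 3′ UTRs cut to the same 2658 bases 57.4% had at least 1 match and 0.434% at least 5. Capitals mark the loop, and each line is the transcribed strand as DNA, 5′ to 3′. The FTL sequence is from RefSeq (GRCh38.p14, chr19:48965329-48965358, plus strand). The TFRC sequences are on the minus strand of GRCh38, at chr3:196050981-196051010, chr3:196050577-196050606, chr3:196050530-196050559, chr3:196050512-196050541 and chr3:196050465-196050494, in the order of the lines.
FTL site 1: gtctgtctcttgcttcaaCAGTGTttggac
TFRC site 1: tataattatcggaagCAGTGCcttccataa
TFRC site 2: acacattatcgggagCAGTGTcttccataa
TFRC site 3: agtttttacctaccaCAGTGTctgtatcgg
TFRC site 4: tgtctgtatcggagaCAGTGAtctccatat
TFRC site 5: agtaattatcgggaaCAGTGTttcccataa
Of the 5 base pairs that could form beside the loop, 5 did so by letters in the FTL site and in TFRC sites 1, 2, 4 and 5. TFRC site 3 had 3 and overlaps site 4. A match is a description of letters, not evidence of binding.

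The first IRE-binding protein, ACO1 (IRP1), had 10.9, 8.82 and 10.9 CPM in UVA and CT, 12.2, 10.3 and 11.6 CPM in UVA and 14.8, 14.9 and 13.8 CPM in control, and was lower than control in every irradiated library (log2 fold change -0.35, adjusted p = 0.0317 for UVA against control and -0.50, adjusted p = 0.00178 for UVA and CT against control). The other, IREB2 (IRP2), had 115 to 126 CPM in all libraries and was called in no comparison, with a log2 fold change of 0.03 for UVA against control (95% interval -0.06 to 0.12). FBXL5, the iron-sensing ubiquitin ligase subunit that directs IREB2 to breakdown, was lower by -0.28 in UVA against control (adjusted p = 0.0256) and by -0.41 in UVA and CT against control (adjusted p = 0.00120). The calls in UVA against control were not firm: that of ACO1 was lost without control replicate 1 or 2 or UVA replicate 2 or 3 (adjusted p up to 0.136), and that of FBXL5 without control replicate 3 or UVA replicate 2 or 3 (up to 0.146).

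**Figure D3:**
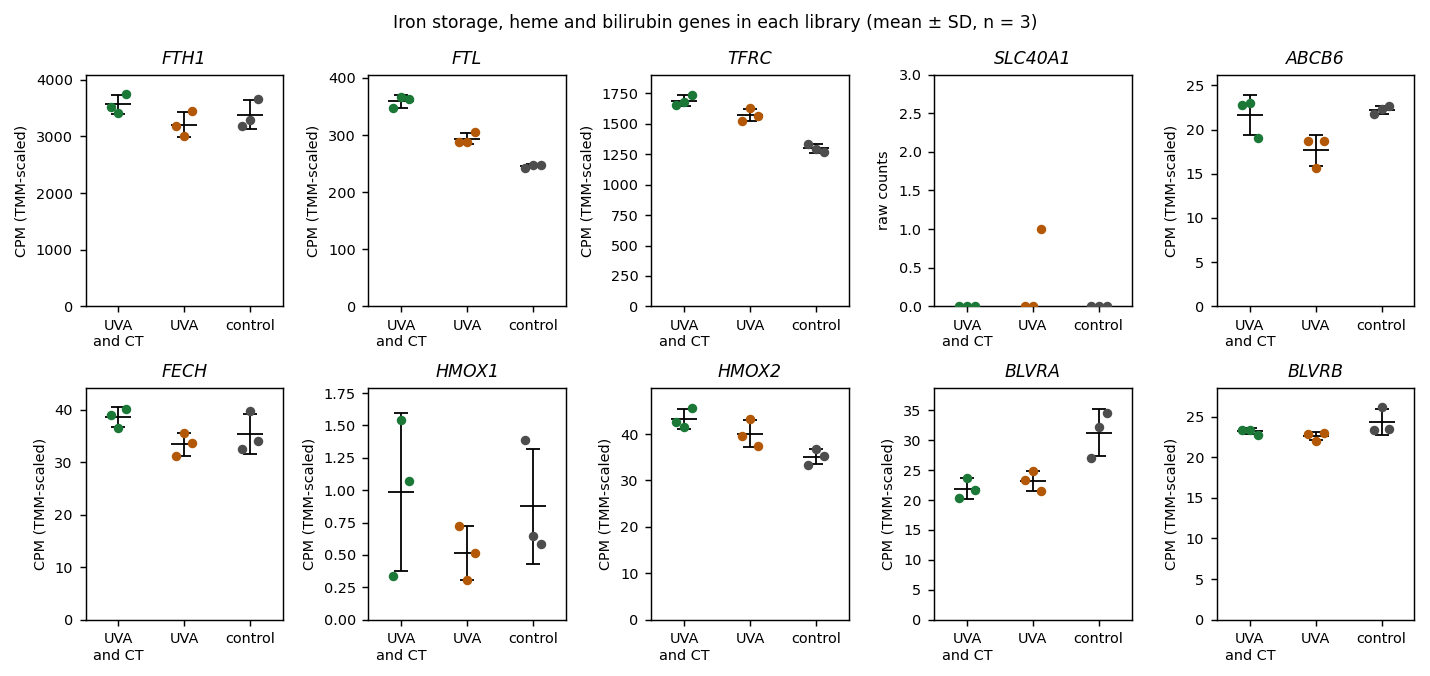
Level of each of the 10 genes in each library, in TMM-scaled CPM (raw counts for SLC40A1), with 3 points per group and bars for the mean and SD. FTL shows 3 separate steps up to 347 to 367 CPM in UVA and CT, BLVRA is highest in control at 27.0 to 34.6 CPM, and HMOX1 stays under 2 CPM in every library.

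ABCB6, a transporter placed in the mitochondrial outer membrane and other membranes that moves porphyrins, lies on chromosome 2 (chr2:219209766-219219017, minus strand). It had 22.8, 23.0 and 19.0 CPM in UVA and CT, 18.7, 15.6 and 18.7 CPM in UVA, and 21.7, 22.3 and 22.6 CPM in control. The UVA libraries were below both other groups with no overlap, by a narrow margin where UVA and CT replicate 3 met them. UVA against control gave a log2 fold change of -0.33 (SE 0.10, adjusted p = 0.0179), and this call was lost without control replicate 2 (adjusted p = 0.0585), control replicate 3 (0.0552) or UVA replicate 2 (0.110). UVA and CT against UVA gave 0.29 (SE 0.09, adjusted p = 0.156) and UVA and CT against control -0.04 (95% interval -0.23 to 0.15, adjusted p = 0.791), neither called. Exons of AC068946.2, on the same strand, cover 54.7% of those of ABCB6, and that gene had 2 to 28 counts per library against 257 to 475 for ABCB6.

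FECH, ferrochelatase, inserts iron into protoporphyrin to complete heme and lies on chromosome 18 (chr18:57548283-57586772, minus strand). It had 39.0, 36.4 and 40.1 CPM in UVA and CT, 31.1, 35.5 and 33.6 CPM in UVA, and 32.6, 39.7 and 34.0 CPM in control. The UVA and CT libraries were above the UVA libraries with no overlap, and the control libraries spanned both. UVA and CT against UVA gave a log2 fold change of 0.21 (SE 0.08, adjusted p = 0.233), and neither UVA against control (-0.08, adjusted p = 0.501) nor UVA and CT against control (0.12, adjusted p = 0.257) was called.

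The core letters of the ARE, TGACNNNGC on either strand, were searched in the RefSeq promoters of the genes, from 250 bases before to 50 after each transcript start (GRCh38.p14). A promoter was found for 8 of the 10, all but FTH1 and HMOX1. ABCB6 and FECH had a match, and the windows of FTL, TFRC, SLC40A1, HMOX2, BLVRA and BLVRB had none, beside 13.3% of 35116 windows in the table. The matches are shown because the regulators of this motif are described with the results, with the core in capitals and both read on the minus strand.
ABCB6 promoter: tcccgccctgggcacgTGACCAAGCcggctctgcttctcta
FECH promoter: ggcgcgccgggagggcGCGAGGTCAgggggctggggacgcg
Distances count from the start of the RefSeq transcript, which for both genes lies inside the GENCODE gene bounds given with the gene. The ABCB6 stretch is chr2:219219086-219219126, with the core 152 bases before the start. The FECH stretch is chr18:57586716-57586756, with the core 38 bases before the start in reverse orientation, GCNNNGTCA, and within the GENCODE bounds of FECH. A match is a description of letters, and a window without one says only that these letters are not in it.

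HMOX1, the inducible heme oxygenase, lies on chromosome 22 (chr22:35380361-35394214, plus strand) and was near the limit of detection. It had 7, 31 and 23 counts in UVA and CT, 13, 5 and 10 in UVA, and 27, 12 and 10 in control, which is 0.34, 1.54 and 1.07 CPM, 0.72, 0.30 and 0.51 CPM, and 1.39, 0.65 and 0.59 CPM. UVA and CT held both the highest and nearly the lowest library, and the 3 groups overlap. The time from irradiation to RNA collection is not stated in the study's methods, so these are levels at an unstated time after UVA. The exact Poisson 95% interval, which covers counting error only, was 0.14 to 0.69 CPM in UVA and CT replicate 1 and 1.05 to 2.19 CPM in UVA and CT replicate 2, so these libraries of one group differed beyond counting error.

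The log2 fold change of HMOX1 was -0.77 for UVA against control (95% interval -1.88 to 0.35, adjusted p = 0.344) and 0.92 for UVA and CT against UVA (95% interval -0.17 to 2.01, adjusted p = 0.475). For UVA and CT against control it was 0.15 (95% interval -0.86 to 1.17, adjusted p = 0.847), and its direction turned when control replicate 2 or 3 or UVA and CT replicate 2 was left out. These intervals take in the spread between libraries as well as counting error, and differences in HMOX1 within them are not excluded. As pattern neighbours, the tested genes closest to HMOX1 over the 9 libraries, by the distance between log2 CPM centred per gene, were NT5M (0.985), CTRL (1.09) and the row named ENSG00000291105 (1.12), where the median gene was at 2.08. All 3 are far from HMOX1 in comparison with the neighbours of FTL, which were CBLB (0.136), MLF1 (0.166) and ALDH1A3 (0.177) with a median of 0.824, and of FTH1, which were CRELD2 (0.0876), PCMT1 (0.102) and NFKBIA (0.116) with a median of 0.546.

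HMOX2, the constitutive heme oxygenase, lies on chromosome 16 (chr16:4474690-4510347, plus strand) and was the main heme oxygenase RNA in every library. It had 42.7, 41.5 and 45.6 CPM in UVA and CT, 39.5, 43.3 and 37.5 CPM in UVA, and 33.4, 36.7 and 35.3 CPM in control. Every irradiated library was above every control library, and the irradiated groups overlap. NMRAL1 on the opposite strand covers 6.01% of its exon bases and had 484 to 764 counts per library, against 601 to 978 for HMOX2. UVA and CT against control gave a log2 fold change of 0.30 (SE 0.07, adjusted p = 0.00234). UVA against control gave 0.19 (SE 0.07, adjusted p = 0.0596), which was called with scaling by library size (0.04998) and without UVA replicate 3 (0.0481), and UVA and CT against UVA gave 0.11 (95% interval -0.03 to 0.26, adjusted p = 0.516). HMOX1 counts were 0.788, 3.72 and 2.35% of HMOX2 counts in UVA and CT, 1.83, 0.702 and 1.36% in UVA, and 4.16, 1.77 and 1.66% in control. These ratios overlap, with exact permutation p of 0.3 for UVA against control, 0.4 for UVA and CT against UVA and 0.8 for UVA and CT against control.

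BLVRA, the reductase of the main form of biliverdin made in adults, lies on chromosome 7 (chr7:43758680-43807342, plus strand). It had 20.3, 23.8 and 21.6 CPM in UVA and CT, 23.3, 24.8 and 21.5 CPM in UVA, and 27.0, 32.2 and 34.6 CPM in control. All 6 irradiated libraries were below the 3 control libraries, and the UVA and CT libraries were not separated from the UVA libraries. UVA against control gave a log2 fold change of -0.43 (SE 0.09, adjusted p = 0.00264) and UVA and CT against control -0.51 (SE 0.09, adjusted p = 0.000322), a change of -29.9%. The UVA and CT libraries against the UVA libraries gave -0.08 (95% interval -0.28 to 0.11, adjusted p = 0.756). BLVRB, the second biliverdin reductase, which also reduces flavins, lies on chromosome 19 (chr19:40447765-40465840, minus strand). It had 23.4, 23.4 and 22.8 CPM in UVA and CT, 22.8, 22.04 and 23.0 CPM in UVA, and 23.3, 26.2 and 23.5 CPM in control. The UVA libraries lay just below the control libraries and within or near the range of UVA and CT. BLVRB was called in no comparison, with log2 fold changes of -0.11 (95% interval -0.27 to 0.06) for UVA against control, 0.04 (-0.13 to 0.20) for UVA and CT against UVA and -0.07 (-0.23 to 0.09) for UVA and CT against control.

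Per kilobase of annotated exon, so that genes can be set beside each other, the mean level of FTH1 was 1756 CPM per kb in UVA and CT, 1582 in UVA and 1666 in control. FTL followed with 409 in UVA and CT, 335 in UVA and 280 in control, and TFRC with 214, 199 and 165 in the same groups. The other genes were far lower in UVA and CT, with 13.7 CPM per kb for BLVRB, 12.02 for BLVRA, 11.4 for HMOX2, 8.61 for FECH, 4.13 for ABCB6 and 0.409 for HMOX1. BLVRA stood above BLVRB in control, with 17.2 against 14.4, and below it in both irradiated groups. These lengths are the union of annotated exons, which can exceed what the cells transcribe.

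The rest of the iron and heme pathway was taken from 6 lists of 76 genes, of which 67 were tested. In UVA against control 12 were called higher and 6 lower, beside the 10.5% and 10.6% of all tested genes. In UVA and CT against UVA 3 were called higher and 0 lower, beside 0.944% and 0.614% of all tested genes. An unadjusted p under 0.05 was reached there by 9 of the 67, about the 13.2% of all tested genes, so that count is no result about the list. In UVA and CT against control 18 were called higher and 7 lower, beside 15.7% and 14.2% of all tested genes. The 18 calls in UVA against control became 8 without UVA replicate 2, 8 without UVA replicate 3, 10 without control replicate 2 and 11 without control replicate 3.

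The genes called between UVA and CT and UVA were ALAS1, UGT1A1 and ABCG2. ALAS1, which catalyses the rate-limiting first step of heme synthesis, had 54.4, 56.6 and 62.1 CPM in UVA and CT, 44.8, 43.1 and 47.1 CPM in UVA and 47.0, 51.2 and 49.5 CPM in control. The UVA and CT libraries were above all others (log2 fold change 0.36 against UVA, SE 0.06, adjusted p = 0.00362, and 0.23 against control, adjusted p = 0.00876, the second lost without UVA and CT replicate 3 at 0.0616). UGT1A1, which conjugates bilirubin for excretion, had 23.1, 24.6 and 22.6 CPM in UVA and CT, 17.0, 14.5 and 17.4 CPM in UVA and 15.02, 16.2 and 14.6 CPM in control. It was higher in UVA and CT than in UVA by 0.52 (SE 0.09, adjusted p = 0.00310) and than in control by 0.61 (SE 0.09, adjusted p = 4.75e-05). UGT1A1 shares its last exons with the other UGT1A genes, so reads can be split among them, and UGT1A6 was the most abundant, with 8263 to 9643 counts in UVA and CT, 5189 to 6477 in UVA and 6039 to 6213 in control. ABCG2, an exporter of heme and porphyrins, had 69.3, 65.4 and 60.2 CPM in UVA and CT, 54.4, 53.6 and 51.5 CPM in UVA and 51.4, 57.8 and 61.5 CPM in control. It was higher in UVA and CT than in UVA by 0.29 (SE 0.07, adjusted p = 0.0286), a call that was lost with limma-voom (0.0592), with scaling by library size (0.0516) and without control replicate 2, any 1 UVA library, or UVA and CT replicate 1 or 2 (adjusted p up to 0.149).

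In the heme synthesis list 1 of 10 tested genes was called lower and 0 higher in UVA against control. Beside the 10.6% and 10.5% of all tested genes, that count is no result about the list. The gene was ALAD, the second enzyme, which was lower by -0.24 (adjusted p = 0.00678) and lower by -0.28 in UVA and CT against control (adjusted p = 0.00148). FLVCR1, a plasma membrane transporter that exports heme and carries choline, had 37.9, 40.2 and 42.9 CPM in UVA and CT, 34.7, 41.5 and 38.9 CPM in UVA and 33.1, 30.02 and 25.2 CPM in control. It was higher in UVA than in control by 0.38 (adjusted p = 0.00665) and higher in UVA and CT than in control by 0.45 (adjusted p = 0.00105).

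Among genes of iron uptake, SLC39A14, a carrier of iron and zinc, was higher in UVA than in control by 0.34 (adjusted p = 0.000277) and in UVA and CT than in control by 0.38 (adjusted p = 4.26e-05). SLC11A2 was higher by 0.20 (adjusted p = 0.00979) and 0.16 (adjusted p = 0.0233) in the same comparisons, the first kept with any library left out. SLC25A37 (mitoferrin), which brings iron into mitochondria, was higher by 0.25 (adjusted p = 0.0362) and 0.37 (adjusted p = 0.00208) in the same comparisons. LRP1, a receptor that takes up heme bound to hemopexin among many ligands, was lower by -0.68 (adjusted p = 0.0207) and -0.73 (adjusted p = 0.0109). HFE, which binds the transferrin receptor, was lower by -0.29 (adjusted p = 0.00971) and -0.38 (adjusted p = 0.000630). In UVA against control the calls of SLC25A37 and LRP1 were lost without any 1 of control replicates 2 and 3 and UVA replicates 2 and 3 (adjusted p up to 0.252 and 0.0721), that of SLC25A37 also with limma-voom (0.0664), and that of HFE without control replicate 2 or UVA replicate 2 or 3 (up to 0.0552). With ACO1 and FBXL5, HFE made up 3 of 5 tested genes of iron regulation and export called lower in UVA than in control, beside 10.6% of all tested genes, each of them a call that some left-out libraries ended. Of the 23 genes of iron-sulfur cluster assembly, 4 were called higher and 0 lower in UVA against control, beside 10.5% and 10.6% of all tested genes. The one with the smallest adjusted p was ISCA1, an assembly protein, with 0.27 (adjusted p = 0.000761) and 0.45 in UVA and CT against control (adjusted p = 2.30e-06).

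**Figure D4:**
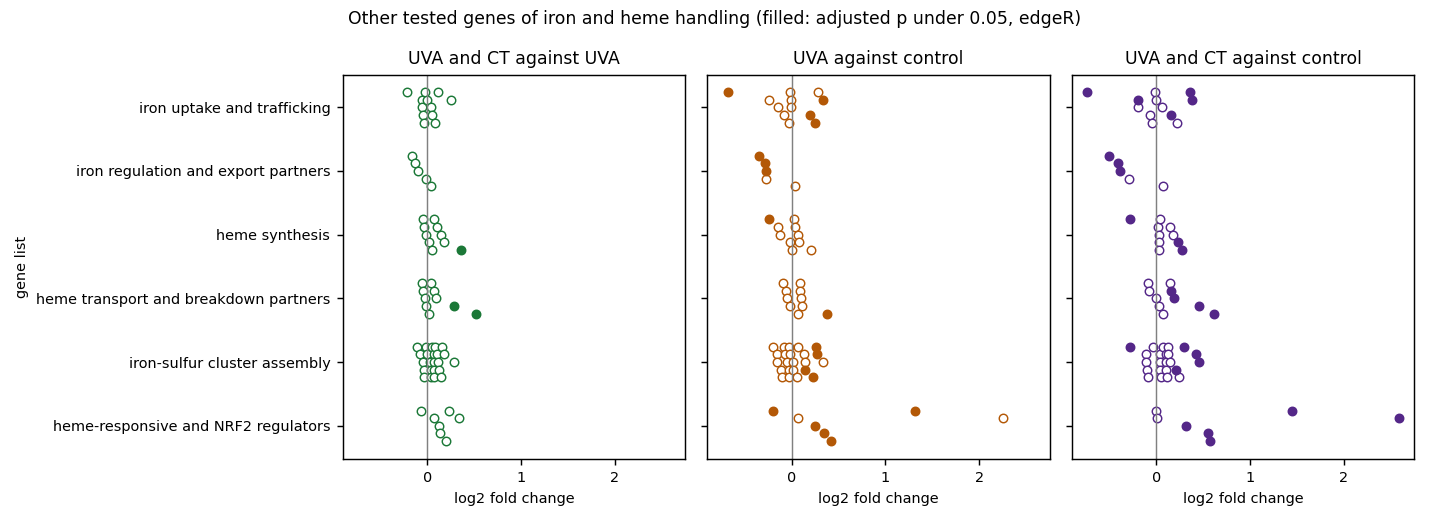
Log2 fold changes (x axis) of the 67 other tested iron and heme genes by list (y axis), 1 point per gene, filled where the adjusted p was under 0.05. In UVA and CT against UVA 3 points are filled, all right of 0, and the point farthest right in the comparisons with control is BACH2, which had under 1 CPM in every library.

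Of the 7 heme-responsive and NRF2 regulators, 4 were called higher and 1 lower in UVA against control, beside 10.5% and 10.6% of all tested genes. In UVA and CT against control 5 were called higher and 0 lower, beside 15.7% and 14.2%. In UVA and CT against UVA 0 were called. NFE2L2 (NRF2) was called in no comparison, with 236 to 259 CPM in UVA and CT, 260 to 265 CPM in UVA and 248 to 252 CPM in control. BACH1, the heme-sensing repressor of HMOX1, was higher in UVA than in control by 0.25 (adjusted p = 0.0207) and in UVA and CT than in control by 0.32 (adjusted p = 0.00244), the first lost without control replicate 2 or 3 or UVA replicate 2 (up to 0.130). MAFF, a small MAF partner of both, had 19.6, 23.8 and 28.4 CPM in UVA and CT, 21.9, 19.9 and 23.6 CPM in UVA and 8.80, 9.36 and 8.17 CPM in control, a log2 fold change of 1.31 for UVA against control (SE 0.13, adjusted p = 2.59e-06). MAFG was higher than control by 0.34 in UVA (adjusted p = 0.00267) and by 0.58 in UVA and CT (adjusted p = 1.04e-05). MAFK was higher than control by 0.42 in UVA (adjusted p = 0.0113) and by 0.56 in UVA and CT (adjusted p = 0.000864). The first of these MAFK calls was lost without control replicate 2 (0.0605) or UVA replicate 3 (0.0599). KEAP1 was lower in UVA than in control by -0.20 (adjusted p = 0.0305) and was not called in UVA and CT against control.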

How the data were processed

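The authors sequenced poly(A) RNA captured on oligo(dT) beads on an Illumina NovaSeq and deposited whole-number read counts per gene, not normalized, in one table. Per the submitters' notes, fastp 0.23.2, bcl2fastq and GRCh38 were used. Aligner, counter, annotation and use of strand: not given in the sources used here. Columns were assigned to groups by the sample labels.

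Genes were kept by edgeR's filterByExpr (15154), scaled by TMM and tested over all 9 libraries with edgeR's robust quasi-likelihood F test. P-values were adjusted by Benjamini-Hochberg over all tested genes, with a threshold of 0.05. Log2 CPM for pattern distances used a prior count of 2. Ratios were compared by two-sided exact permutation tests. The tools were edgeR 4.0.16, DESeq2 1.42.0 and limma 3.58.1 in R 4.3.3, and matplotlib 3.10.9 in Python 3.11.15. The procedure was tested on simulated data, but its pass mark covered only changes larger than any called among the genes described here. Libraries of a group differed beyond sampling noise (chi-square per degree of freedom 2.78 to 7.29), so each was counted. Gene positions and exon lengths are from GENCODE v29, and promoters from RefSeq.

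The genes and lists were chosen with earlier results of these data known. Other pathway genes were named if called and among the 4 smallest adjusted p-values of their list and comparison (not all are described), and pattern neighbours were the 3 nearest genes. IREB2, NFE2L2, KEAP1, BACH2 and UGT1A6 fall outside this rule and were named after their values were seen. Alternatives were RLE and library-size scaling, DESeq2, limma-voom, no filter, at least 10 counts in every library, the compared groups alone, a replicate block, each library left out in turn, and a fold change over 2 besides the adjusted p.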

Additional observations from a re-analysis of the deposited data

How the results depend on the processing

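The members called under edgeR's other scalings, DESeq2, limma-voom and a fit of the compared groups alone were FTL, TFRC, ABCB6 and BLVRA for UVA against control, with HMOX2 added by library-size scaling, FTL for UVA and CT against UVA, and FTL, TFRC, HMOX2 and BLVRA for UVA and CT against control. Requiring a fold change over 2 as well left 230 genes of the whole table, 0 of the 10 genes and 1 other pathway gene in UVA against control, 16, 0 and 0 in UVA and CT against UVA, and 355, 0 and 2 in UVA and CT against control. With no filter on low counts, UVA and CT against UVA gave 561 genes of the whole table, 2 of the 10 genes, FTL and FTH1 (adjusted p = 0.00396), and 6 other pathway genes. Scaling by library size split the calls of UVA and CT against UVA into 117 higher and 116 lower, beside 143 and 93 with TMM. Leaving out 1 library at a time gave 95 (without UVA replicate 2) to 372 (without UVA and CT replicate 1) genes of the whole table in UVA and CT against UVA, and 8 to 20 other pathway genes in UVA against control and 2 to 3 in UVA and CT against UVA.

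Same-numbered libraries were not treated as pairs, since the correlations of their residuals were -0.0481 to 0.0280. With the replicate number as a block, 4, 1 and 4 of the 10 genes were called in UVA against control, UVA and CT against UVA, and UVA and CT against control, as without it, and 15, 2 and 23 other pathway genes. Under the block the calls of LRP1 (adjusted p = 0.0610), SLC25A37 (0.0534) and ISCA2 (0.0533) in UVA against control and of ABCG2 in UVA and CT against UVA (0.0825) and against control (0.0638) were lost.

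Directions turned only for values that were not called. The log2 fold change of HMOX1 in UVA and CT against control was -0.0014 with limma-voom and ranged from -0.32 to 0.66 over the libraries left out (-0.03 without control replicate 2, -0.06 without control replicate 3, -0.32 without UVA and CT replicate 2). FECH in UVA against control was 0.0068 without control replicate 2 (range -0.14 to 0.0068), and ABCB6 in UVA and CT against control was 0.0454 without UVA and CT replicate 3 (range -0.0884 to 0.0454). The log2 ratio of HMOX1 to HMOX2 in UVA and CT against control was 0.15 without control replicate 1 and 0.36 without UVA and CT replicate 1 (range -0.76 to 0.36). The cause was not tested. HMOX1 had no value where at least 10 counts were required in every library. HMOX1 and SLC40A1 had the fewest counts of the 10 genes, at most 31 and 1 in a library.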
